A study of Mus musculus with 6 samples.

Results

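The digestive enzymes and secretory proteins of pancreatic acinar cells were followed as a set of 33 listed genes in RNA sequencing of mouse pancreatic islets. Members were found by gene name in the authors' annotated tables, which named 31 of the 33, out of 47643 genes in each count table. All 31 stood in the annotation of the first table and 28 in that of the second, which lacked Cela3a, Ptf1a and Amy2b. Amy2a5 and Spink3 had no row under those names. The islets came from wild-type mice (WT, 3 libraries) and from mice that carry a miR-203 transgene specific to beta cells (TG, 3 libraries). All mice are labelled male, 10 weeks old and fasted for 12 h, and the promoter that drives the transgene was not given in the sources used here. One deposited count table (the first table) holds WT 1, WT 2, TG 1 and TG 2, and a separate one (the second table) holds WT 3 with TG 3.

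Acinar cells make up most of the pancreas outside the islets. They store digestive enzymes in zymogen granules, most of them as inactive precursors, and release them into the ducts when food arrives. Trypsin, cut free from trypsinogen in the gut, activates the other precursors. Isolated islets commonly carry some acinar cells or acinar RNA along, so these genes read how much exocrine material an islet preparation holds. In such bulk RNA, fewer acinar cells and less acinar RNA per cell cannot be told apart.

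Library totals were 20176456 counts in WT 1, 24631199 in WT 2, 21136559 in WT 3, 27110459 in TG 1, 27482339 in TG 2 and 21615905 in TG 3. WT 3 and TG 3 stood apart from their labels. The X-inactivation transcript Xist was at 1099 and 1129 CPM in them, counts scaled to a common library size after TMM adjustment, and at most 0.701 CPM in the other 4. The Y-linked genes Kdm5d, Eif2s3y, Uty and Ddx3y were at most 0.437 CPM in WT 3 and TG 3 and at least 29.3 CPM in the others. The table, this difference and anything else the 2 tables do not share cannot be told apart. Nothing in the labels ties each library to an animal of its own, so p-values here measure only how these samples spread, which may be technical.

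The trypsinogens include several near-identical pairs, and the coding starts of 6 of these genes and of the more distant 1810009J06Rik are shown first because levels within the family differed. The first 60 coding bases come from the GENCODE M21 transcripts (GRCm38), with the bases that differ from Prss2 in capitals:
Prss2: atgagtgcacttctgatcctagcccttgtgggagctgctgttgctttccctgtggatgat
Try4: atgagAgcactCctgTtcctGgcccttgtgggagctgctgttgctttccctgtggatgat
Prss1: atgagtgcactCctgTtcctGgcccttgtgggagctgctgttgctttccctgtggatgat
Gm5771: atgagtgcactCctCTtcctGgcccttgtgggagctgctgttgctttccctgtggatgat
Prss3: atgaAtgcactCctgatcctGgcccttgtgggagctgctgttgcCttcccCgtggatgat
Gm10334: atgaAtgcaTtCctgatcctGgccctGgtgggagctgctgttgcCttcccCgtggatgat
1810009J06Rik: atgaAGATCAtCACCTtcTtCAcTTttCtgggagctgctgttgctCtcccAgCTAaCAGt
Prss2, Try4, Prss1 and Prss3 are members, and Gm5771, Gm10334 and 1810009J06Rik are further trypsin-like genes of the same locus from the list of other acinar genes. Prss3 and Gm10334 were 99.1% identical over the coding frame, Prss1 and Gm5771 97.6%, and Try4 and Try5 97.4%. Prss1 and Prss2 were 89.6% identical. The member 2210010C04Rik was 75.1% to 76.1% identical to the other 5 members of the family, and 1810009J06Rik 69.7% to 77.2% identical to the 6 members. Of the 50-base windows of a gene's transcripts, 66.1% were found in another gene for Prss3, 54.9% for Prss1, 65.6% for Try4, 47.6% for Try5, 7.83% for Prss2 and 0 for 2210010C04Rik. Of the non-members it was 81.5% for 1810009J06Rik, 63.7% for Gm10334, 55.4% for Gm5771 and 40.8% for Try10. Reads from such shared stretches may be split or dropped by a counter, so the level of each of these genes but 2210010C04Rik and, to a lesser extent, Prss2 is uncertain as that of a single gene.

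The 31 members held a small share of each library, and the second table had far less of it. Their summed share was 0.397% of counts in WT 1 (95% Wilson interval 0.394 to 0.399), 0.856% in WT 2 (0.852 to 0.859), 0.517% in TG 1 (0.515 to 0.520) and 0.602% in TG 2 (0.599 to 0.605). It was 0.0223% in WT 3 (0.0217 to 0.0229) and 0.0457% in TG 3 (0.0448 to 0.0466). The intervals hold counting error alone, because the reads carry no molecular identifiers and so may repeat a molecule. The 2 second-table libraries lay below all 4 first-table libraries, and the lowest first-table share was 8.68-fold the highest second-table share. The mean log2 share of the second table minus that of the first was -4.16, a 17.9-fold difference of geometric means, and -4.01 without the trypsinogens. The exact two-sided permutation test over libraries gave p = 0.0667, the smallest that its 15 arrangements allow. Within the first table WT 2 held 2.16-fold the share of WT 1, so the 2 WT libraries spanned the range of the 2 TG libraries.

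The genotypes did not separate in this sum. The mean log2 share was 0.30 higher in TG, a 1.23-fold difference, with p = 0.667 in the exact two-sided permutation test within tables (smallest possible p = 0.167). Leaving out single libraries moved it from -1.27 without WT 3 to 1.51 without TG 3. Without TG 1 it was -0.24, without TG 2 it was -0.35, and without WT 2 it was 1.37.

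**Figure D1:**
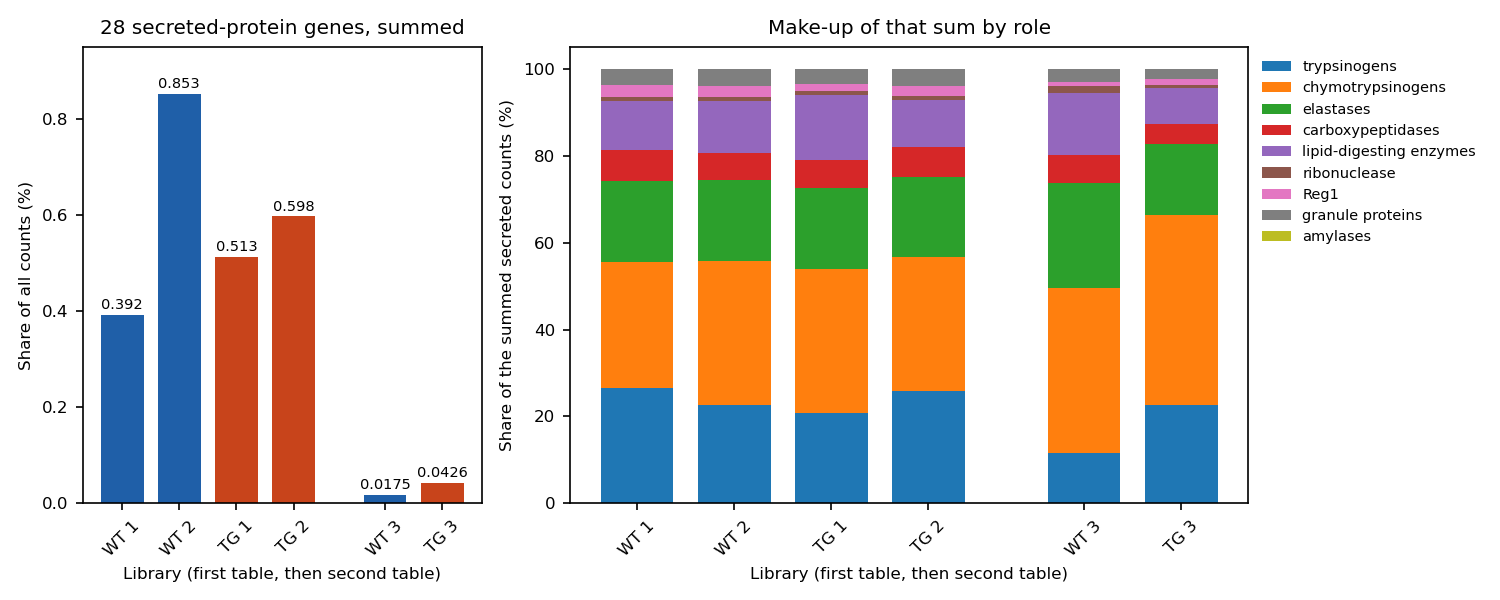
Left, the summed share of all counts (%) held by the 28 members that are not transcription factors, 1 bar per library, WT in blue and TG in red. Right, the make-up of that sum by role (%). The first-table bars stand between 0.392% and 0.853% and the second-table bars at 0.0175% and 0.0426%, while chymotrypsinogens are the largest group in all 6 libraries.

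The make-up of the secreted sum, which leaves out the 3 transcription factors, also varied between libraries. Chymotrypsinogens held 29.2% of it in WT 1, 33.1% in WT 2, 33.1% in TG 1 and 30.9% in TG 2, and 38.1% in WT 3 and 43.8% in TG 3. Trypsinogens held 20.8% to 26.5% in the first table, 11.5% in WT 3 and 22.6% in TG 3. Elastases ranged from 16.4% in TG 3 to 24.1% in WT 3. Lipid-digesting enzymes ranged from 8.14% in TG 3 to 14.9% in TG 1, and carboxypeptidases from 4.54% in TG 3 to 6.98% in WT 1. Granule proteins ranged from 2.44% in TG 3 to 4.03% in WT 2, the regulatory protein Reg1 from 1.11% in WT 3 to 2.75% in WT 1, and the ribonuclease from 0.717% in TG 3 to 1.59% in WT 3. These shares carry no test.

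Of the 31 members, 26 passed the filter on low counts, with 16072 genes tested in all. Prss1, Cela3a, Amy2b, Ptf1a and Rbpjl did not pass. Between the tables, 24 of the 26 were lower in the second table at a Benjamini-Hochberg adjusted p under 0.05 in edgeR's quasi-likelihood test, with table and genotype as terms. Over all tested genes 3.85% were called lower. The same 24 had both second-table libraries below all 4 first-table libraries, against 20.6% of tested genes. The members' median log2 ratio of second to first table was -4.79, and the median over all tested genes was -0.03. Of the 50 genes with the lowest ratio among 11169 genes with a mean of at least 5 CPM, 22 were members, and 24 members had that level. With WT 3 or TG 3 left out the second table held only 1 library, so calls are not counted there. The members' median log2 ratio was -4.41 without WT 3 and -5.20 without TG 3. Without WT 1, 10 members were called lower, where 17 of all 16906 tested genes were. DESeq2 called 23.

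Among the trypsinogens, Prss2, a major trypsinogen of the mouse pancreas, was at 449.7, 857.4 and 8.61 CPM in WT 1 to WT 3 and at 279.8, 644.4 and 18.3 CPM in TG 1 to TG 3. Its 2 second-table values lay far under the other 4, and its log2 ratio of second to first table was -5.37 (SE 0.66, edgeR adjusted p = 0.0189). Try4 was at 275.3, 514.3 and 3.80 CPM in WT and 295.6, 427.5 and 13.4 CPM in TG, the lowest ratio of all members at -5.59 (SE 0.62, edgeR adjusted p = 0.0179). Its close copy Try5 was at 263.2, 401.0 and 3.50 CPM in WT and 232.1, 373.7 and 22.0 CPM in TG. The trypsin-like 2210010C04Rik, which shared no 50-base window with another gene, was at 135.4, 318.8 and 2.71 CPM in WT and 154.8, 215.6 and 7.38 CPM in TG. In all 4 genes TG 3 was above WT 3, and WT 2 was the highest library.

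Chymotrypsinogen B is encoded by Ctrb1, at chr8:111686510-111691010 on the minus strand in the authors' annotation (GRCm38). It was the member with the highest CPM per kilobase of gene length in every library. Its level was 1171, 2856 and 57.0 CPM in WT and 1476, 1896 and 161.1 CPM in TG, with a log2 ratio of second to first table of -4.17 (SE 0.62, edgeR adjusted p = 0.0225). Ctrl, the chymotrypsin-like protease, was at 72.9, 195.3 and 4.68 CPM in WT and 123.5, 113.2 and 5.85 CPM in TG. Ctrc, chymotrypsin C, which can degrade trypsinogen, had 1 to 21 counts per library. It overlaps Cela2a on the same strand, so its count is uncertain.

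Elastases are proteases for elastic fibres and other proteins. Cela1 was at 383.2, 759.9 and 24.7 CPM in WT and 382.9, 616.5 and 35.9 CPM in TG, a log2 ratio of -4.15 between the tables (SE 0.44, edgeR adjusted p = 0.0179). Cela2a was at 223.2, 514.0 and 5.55 CPM in WT and 271.4, 334.4 and 9.04 CPM in TG, a ratio of -5.52 (SE 0.50, edgeR adjusted p = 0.0145). So the 2 elastases fell by different amounts on the log2 scale in the fit, a difference that was not tested. Cela3b was at 189.3, 447.5 and 8.66 CPM in WT and 242.6, 242.2 and 17.7 CPM in TG, while its copy Cela3a had at most 4 counts in any library. The carboxypeptidases, which trim amino acids from the end of a protein, followed: Cpa1 was at 189.1, 369.0 and 7.87 CPM in WT and 175.2, 271.6 and 10.7 CPM in TG. Cpb1 was at 108.9, 194.4 and 2.71 CPM in WT and 138.8, 175.5 and 6.59 CPM in TG.

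The 6 lipid-digesting enzymes and cofactors were all called lower in the second table, with log2 ratios from -4.98 for Clps to -4.10 for Pla2g1b. Pnlip, pancreatic triglyceride lipase, was at 139.4, 398.0 and 8.13 CPM in WT and 297.6, 189.8 and 11.4 CPM in TG. Its cofactor colipase, Clps, was at 50.8, 142.4 and 2.71 CPM in WT and 104.8, 68.3 and 3.07 CPM in TG. In both genes TG 1 was above TG 2, the reverse of Prss2, Reg1 and Gp2. Cel, the bile salt-activated lipase, was at 109.5, 194.4 and 4.11 CPM in WT and 121.2, 183.7 and 6.26 CPM in TG, and had the lowest adjusted p of the members (log2 ratio -4.89, SE 0.39, edgeR adjusted p = 0.0123). The lipase relatives Pnliprp1 and Pnliprp2 had ratios of -4.84 and -4.94. Pla2g1b, the pancreatic phospholipase, had a mean of 9.08 ± 4.73 CPM (SD, n = 4) in the first table and was at 0.481 and 0.539 CPM in WT 3 and TG 3.

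The remaining secreted members were lower in the second table as well. Rnase1, pancreatic ribonuclease, was at 39.6, 85.2 and 2.58 CPM in WT and 45.6, 56.0 and 2.74 CPM in TG. Reg1, a secreted lectin-like protein linked to pancreatic injury and regrowth, was at 117.4, 218.5 and 1.79 CPM in WT and 82.9, 155.1 and 5.22 CPM in TG. Of the zymogen granule proteins, Gp2, a membrane glycoprotein of the granules, was at 40.4, 83.7 and 0.743 CPM in WT and 28.8, 59.1 and 1.49 CPM in TG, a log2 ratio of -5.52 (SE 0.62, edgeR adjusted p = 0.0179). Sycn (syncollin), Zg16 and Cuzd1 had ratios of -5.30, -4.48 and -4.69. All 4 granule proteins passed the test.

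Amylase, the starch-digesting enzyme that usually ranks among the most abundant acinar products, had few counts. Amy1, the amylase gene with the most counts in each library and a gene of the further acinar list, had 34, 68 and 72 counts in WT and 69, 84 and 82 in TG. Its log2 ratio of second to first table was 0.31 (SE 0.32, edgeR adjusted p = 0.533). Amy2b, a pseudogene in the authors' annotation, had 8, 25 and 0 counts in WT and 3, 22 and 0 in TG. Unlike Amy1 it had no count in the second table, and without the low-count filter its log2 ratio of second to first table was -6.89. The 5 annotated copies of Amy2a together had 0, 2 and 0 counts in WT and 4, 1 and 1 in TG, and Amy2a5 alone had 1 count in TG 3 and 0 in the others. Of the 50-base windows of Amy2a5, 53.5% are shared with other genes. How the counter handled reads with several matches was not given in the sources used here, and the part of that handling in these low counts was not tested.

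Of the 3 transcription factors only Bhlha15 had enough counts to be tested, and it was not called between the tables. Bhlha15 (Mist1), which shapes the secretory machinery of acinar cells, had 831, 629 and 1006 counts in WT and 1218, 1102 and 670 in TG. Its level was 44.8, 27.6 and 44.0 CPM in WT and 42.3, 43.7 and 27.8 CPM in TG, so the tables overlapped. Its log2 ratio between the tables was -0.15 (SE 0.27, edgeR adjusted p = 0.738). It was 0.06 with total counts as library size and 0.28 without TG 3. Bhlha15 therefore made up 21.3% of member counts in WT 3 and 0.299% in WT 2. Ptf1a and Rbpjl, parts of the complex that switches on enzyme genes in acinar cells, did not pass the filter. Ptf1a had 7, 7 and 0 counts in WT and 1, 8 and 1 in TG, and without the filter its log2 ratio of second to first table was -3.21 (edgeR adjusted p = 0.119). Rbpjl had 4, 11 and 4 counts in WT and 4, 10 and 5 in TG, with a ratio of -0.64 without the filter (edgeR adjusted p = 0.751).

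**Figure D2:**
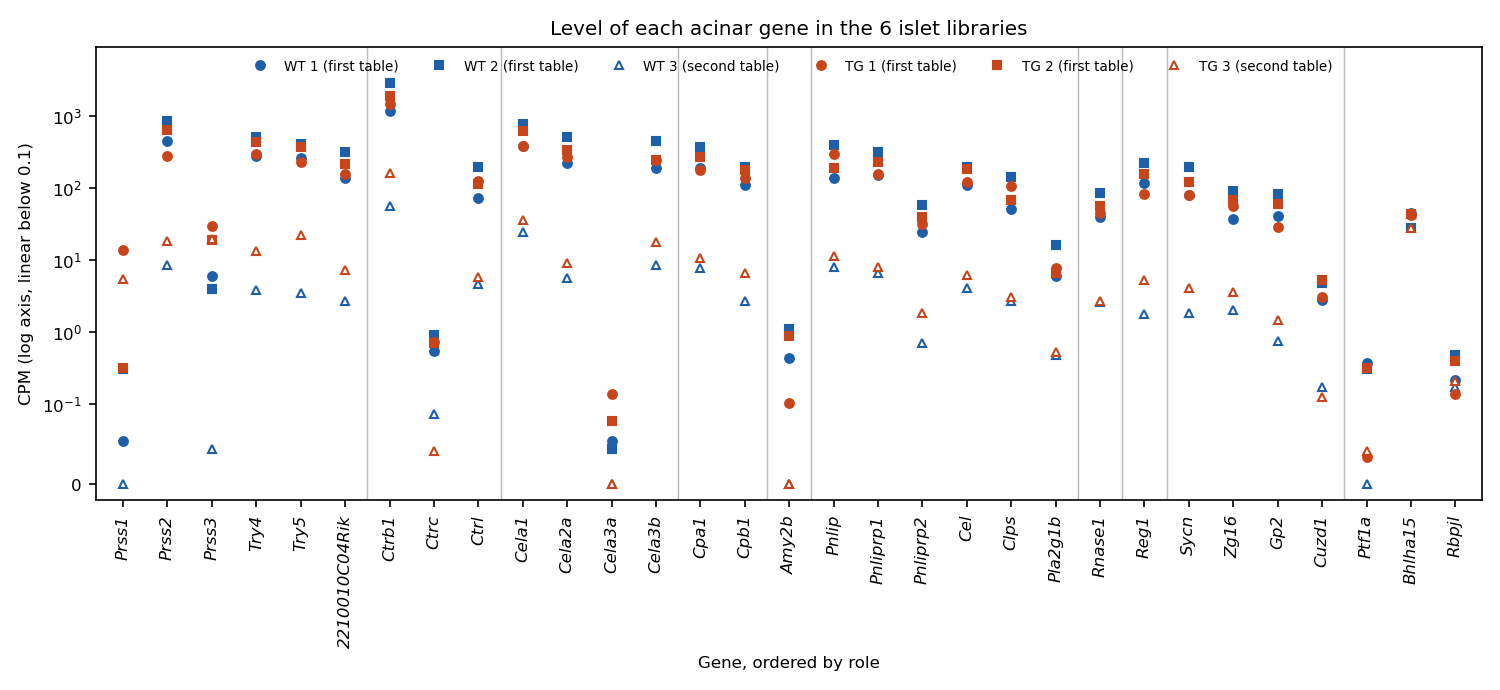
CPM of each of the 31 genes found by name (log axis, linear below 0.1), ordered by role with grey lines between roles. Blue is WT and red is TG, filled symbols are first-table libraries and open triangles second-table libraries. Open triangles lie far under the filled symbols for nearly all secreted members, except the red triangles of Prss1 and Prss3, and among them for Bhlha15.

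In the fit, both genotypes showed the table difference. Among the 24 called members the first-table mean was 8.36-fold (Ctrc) to 103.8-fold (Try4) the second-table value in WT, with a median of 36.2-fold. In TG it was 10.5-fold (Ctrb1) to 33.5-fold (Cela2a), with a median of 22.1-fold. Each of these rests on 1 second-table library, so calls within a single genotype are not counted. The median fitted log2 ratio of the 26 tested members was -5.18 within WT and -4.40 within TG. For 22 of the 24, TG 3 was above WT 3 and WT 3 was the lowest of the 6 libraries, and Ctrc and Cuzd1 were the exceptions. For 23 of the 24, WT 2 was the highest library.

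**Figure D3:**
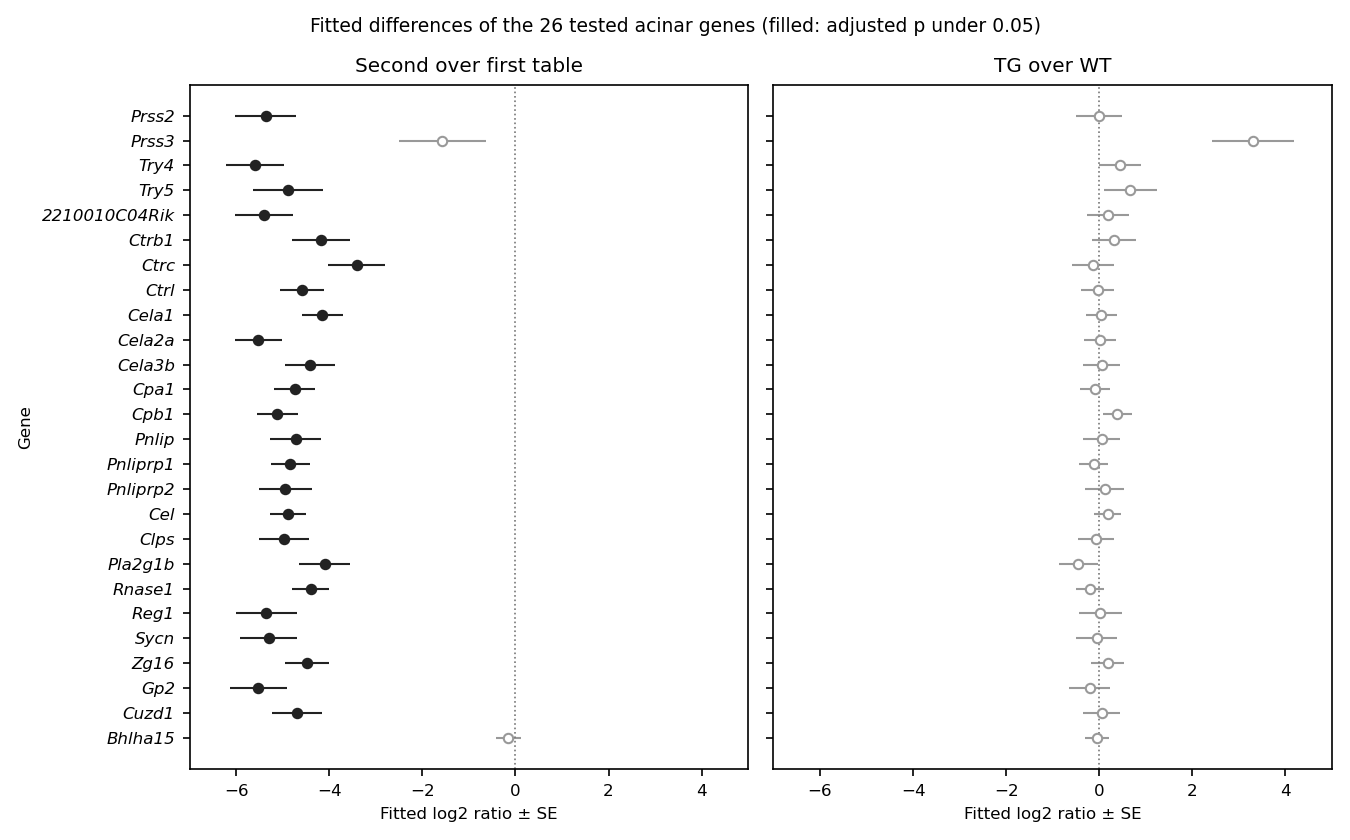
Fitted log2 ratio ± SE of the 26 tested members between the tables (left) and between the genotypes (right), each from all 6 libraries, with filled points at an adjusted p under 0.05. On the left all members but Prss3 and Bhlha15 lie between -5.59 and -3.41. On the right no point is filled, and Prss3 stands apart at 3.30.

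Between the genotypes, no member passed the adjusted threshold of 0.05 in edgeR, as no gene of all 16072 did, and DESeq2 and limma-voom also called 0 members. The members' median log2 ratio of TG to WT was 0.03 and that of all tested genes -0.01, and 15 of 26 were fitted higher in TG. One member, Prss3, was higher in TG at an unadjusted p under 0.05, and none was lower. Of all tested genes 9.32% were higher by that rule and 4.81% lower. Prss3 was also the 1 member with each TG library above all WT libraries in the same table, against 13.0% of tested genes. No member had each TG library below them, against 13.4%. Leaving Prss3 and Bhlha15 aside, ratios ran from -0.45 for Pla2g1b to 0.66 for Try5, and adjusted p from 0.618 to 0.996. In the first table, 21 of these 24 had a lower mean in TG than in WT, by a median ratio of 0.850. In the second table, 22 of 24 were higher in TG 3 than in WT 3, by a median of 1.69-fold, with 1 library on each side.

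The TG effect was compared between the tables with an interaction term. No member passed in edgeR (lowest adjusted p = 0.9998), while Prss3, Try4, Try5 and Reg1 had an unadjusted p under 0.05, against 2.28% of tested genes. DESeq2 called 1 member, Try5 (adjusted p = 0.0274). All 4 had a larger TG to WT ratio in the second table than in the first. Try5, for example, had a log2 ratio of -0.13 in the first table and 2.65 in the second, where it rests on 80 counts in WT 3 and 530 in TG 3.

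Prss3 set itself apart from the other enzymes. This trypsinogen gene (ENSMUSG00000071519) lies at chr6:41373814-41377678 on the minus strand (GRCm38). It had 111, 90 and 1 counts in WT 1 to WT 3 and 865, 473 and 476 in TG 1 to TG 3. In CPM this was 5.98, 3.96 and 0.0437 in WT and 30.0, 18.8 and 19.7 in TG. The genotypes did not overlap. TG 3 was close to TG 2 in Prss3, while the 24 called members were at least 10.5-fold lower in TG 3 than in the mean of TG 1 and TG 2. The mean was 3.33 ± 3.02 CPM in WT and 22.8 ± 6.26 CPM in TG (SD, n = 3 each). The log2 ratio of TG to WT was 3.30 (SE 0.88), with an edgeR adjusted p of 0.230 and a DESeq2 adjusted p of 0.0826. Without TG 2, where edgeR called 1461 of 16560 genes higher in TG and 728 lower, the adjusted p of Prss3 was 0.0268 (log2 ratio 3.79). With any one of the other 5 libraries left out in turn it was 0.387 to 0.924, and the log2 ratio ran from 2.29 without WT 3 and 2.30 without TG 3 to 3.88 without WT 1. Relative to the summed secreted counts of each library, a scaling chosen after the data were seen, the adjusted p was 0.0183 (log2 ratio 3.36). Between the tables its log2 ratio was -1.57 (SE 0.94, edgeR adjusted p = 0.292), which became -6.66 without TG 3 and -0.32 without WT 3.

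Set against Prss2, Prss3 had 1.33, 0.461 and 0.508 counts per 100 Prss2 counts in WT 1 to WT 3. It had 10.7, 2.91 and 107.7 per 100 in TG 1 to TG 3. Against Ctrb1 it had 0.0768 to 0.511 counts per 100 in WT and 0.989 to 12.3 in TG. Each TG library was thus above all WT libraries in both ratios, by the least margin in TG 2. Its share of the secreted sum was 5.17% in TG 3 and at most 0.622% in the others.

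Prss1 had 1, 7 and 0 counts in WT and 394, 8 and 130 in TG. The 0 in WT 3 allows up to 0.131 CPM (3 counts), and TG 3 stood at 5.39 CPM. TG 1 and TG 3 were above every WT library, and TG 2, at 0.317 CPM, was next to WT 2, at 0.308 CPM. Prss1 did not pass the low-count filter. Without that filter its adjusted p for TG against WT was 8.33e-31 in edgeR. Of 31 members 3 passed there, Prss1, Prss3 and Try5 (Try5 with a log2 ratio of 0.66 and an adjusted p of 0.0431). Over all 29725 genes that fit called 1300 higher and 372 lower in TG, where the main fit called 0. It also moved the edgeR adjusted p of Prss2 between the tables from 0.0189 to 1.45e-67, at log2 ratios of -5.37 and -5.35. The size of these p-values thus depends on the filter. Without TG 2, 2 of 27 tested members passed, Prss1 and Prss3, both higher in TG. Over all 16560 genes tested there, 1461 were called higher and 728 lower.

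Of the neighbouring genes, 3 also had higher values in every TG library than in any WT library. The trypsinogen genes lie in the T-cell receptor beta locus, and between 1810009J06Rik and Prss2 (chr6:40964754-41525079, 560.3 kb) the annotation holds 57 genes, 11 of them with at least 50 counts in a library. The 33 T-cell receptor segments there had at most 3 counts in any library. Gm5771 had 11, 7 and 1 counts in WT and 543, 81 and 190 in TG, with an edgeR adjusted p of 0.199. Gm10334 had 7, 0 and 0 counts in WT and 456, 15 and 349 in TG (edgeR adjusted p = 0.216). 1810009J06Rik had 12, 9 and 0 counts in WT and 291, 59 and 77 in TG (edgeR adjusted p = 0.199). In each of the 3, every TG library was above every WT library, and TG 2 was the lowest of the TG libraries. DESeq2 called Gm5771 (adjusted p = 1.54e-08) and 1810009J06Rik (1.43e-05) and not Gm10334 (0.0949). Of 15137 genes it called 616 higher in TG. Without TG 2, edgeR called 1461 of 16560 genes higher in TG. It called all 3 there, with adjusted p of 0.00102, 0.00292 and 0.00363 for Gm5771, Gm10334 and 1810009J06Rik. With any one of the other 5 libraries left out in turn it called none of them, with adjusted p from 0.328 to 0.924, and the log2 ratio of Gm10334 ran from 4.73 without TG 1 to 11.13 without WT 1.

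Among the other genes of the locus with such counts, 5 were called lower in the second table. Try10, from the list of other acinar genes, had 32, 51 and 2 counts in WT and 46, 79 and 3 in TG. It was lower in the second table (log2 ratio -4.29, SE 0.56, edgeR adjusted p = 0.0202), as were Prss2, Try4, Try5 and 2210010C04Rik. Gm2663, named here after its values were seen, had 68, 212 and 0 counts in WT and 375, 289 and 92 in TG. Each TG library was above the WT libraries of its table in CPM, with a log2 ratio of TG to WT of 1.802 (SE 0.89, edgeR adjusted p = 0.407). Its ratio between the tables was -2.93 (SE 1.05, edgeR adjusted p = 0.109). It shares 83.5% of its 50-base windows with 1810009J06Rik. Grouped after their values were seen, Prss3, Prss1, Gm5771, Gm10334 and 1810009J06Rik together had 0.680, 0.237 and 0.467 counts in WT 1 to WT 3 per 100 counts of Prss2, Try4, Try5, 2210010C04Rik and Try10. In TG 1 to TG 3 they had 9.18, 1.52 and 82.9 per 100. Members of 1 family with shared reads are not independent of each other, and this grouping carries no test.

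**Figure D4:**
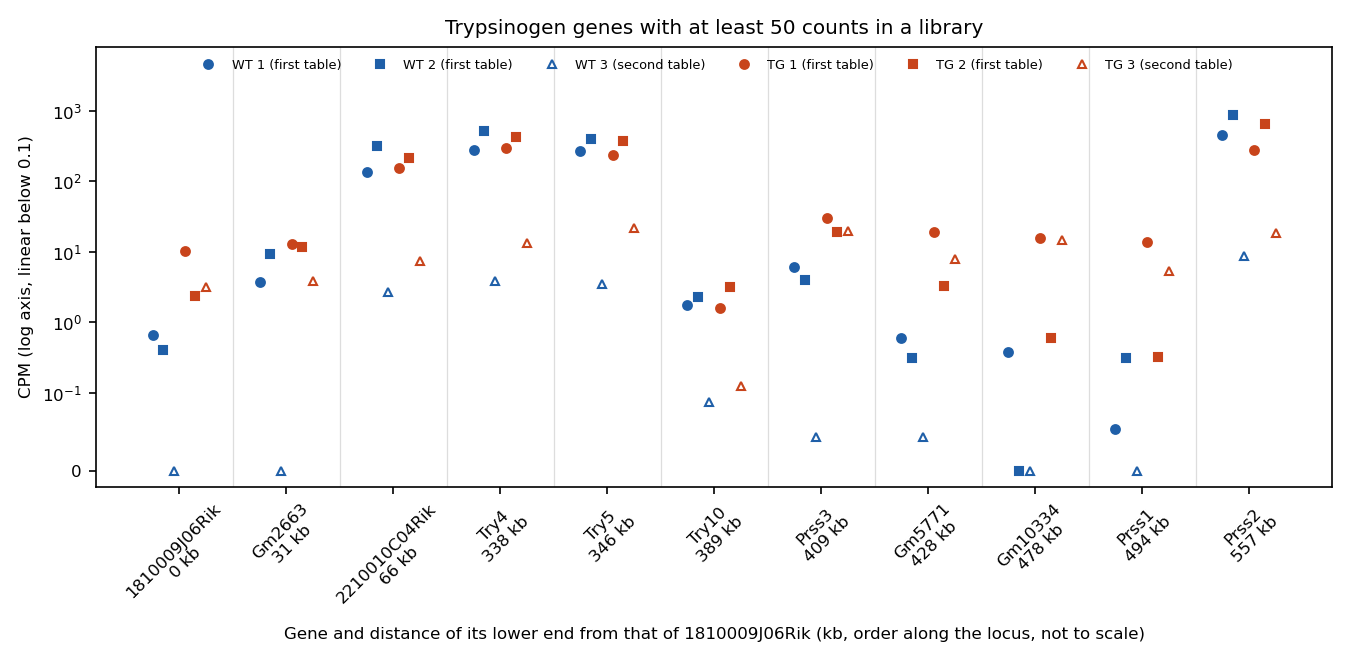
CPM in the 6 libraries (log axis, linear below 0.1) of the 11 genes of the trypsinogen locus with at least 50 counts in a library, in order along chromosome 6, with distances in kb. Blue is WT, red is TG, and open triangles are second-table libraries. For Prss3, Gm5771, Gm10334 and 1810009J06Rik all red symbols lie above the blue ones, while Prss2, Try4, Try5, Try10 and 2210010C04Rik have both triangles at the bottom.

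Upstream sequences are shown for Prss3 with Gm10334 and for Prss1 with Gm5771, 2 pairs that are near copies in the coding frame, and for Prss2 and Try4. 1810009J06Rik, also higher in every TG library, belongs to neither pair and its promoter is not shown. They are the 120 bases before the RefSeq transcript start (GRCm38.p6), with TATAAA and TTTCCC (or GGGAAA, its reverse complement) in capitals:
Prss3: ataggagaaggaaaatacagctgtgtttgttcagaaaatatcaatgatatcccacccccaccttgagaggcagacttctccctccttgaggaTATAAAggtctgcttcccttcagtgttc
Gm10334: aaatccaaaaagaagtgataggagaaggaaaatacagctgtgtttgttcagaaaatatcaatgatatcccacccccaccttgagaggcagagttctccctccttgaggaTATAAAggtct
Prss1: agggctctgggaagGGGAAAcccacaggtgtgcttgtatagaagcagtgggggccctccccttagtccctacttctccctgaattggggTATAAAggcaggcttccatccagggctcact
Gm5771: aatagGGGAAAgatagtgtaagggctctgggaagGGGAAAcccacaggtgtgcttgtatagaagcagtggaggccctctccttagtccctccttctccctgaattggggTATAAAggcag
Prss2: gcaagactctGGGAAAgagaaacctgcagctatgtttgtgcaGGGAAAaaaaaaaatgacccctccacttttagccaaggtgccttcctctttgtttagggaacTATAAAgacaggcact
Try4: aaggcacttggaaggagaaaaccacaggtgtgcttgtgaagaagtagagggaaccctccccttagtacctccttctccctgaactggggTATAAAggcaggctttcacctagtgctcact
For Prss3 these bases lie at chr6:41377614-41377733 on the minus strand. For Gm10334 these bases lie at chr6:41446098-41446217 on the minus strand. For Prss1 these bases lie at chr6:41458810-41458929 on the plus strand. For Gm5771 these bases lie at chr6:41392236-41392355 on the plus strand. For Prss2 these bases lie at chr6:41521656-41521775 on the plus strand. For Try4 these bases lie at chr6:41302152-41302271 on the plus strand. Over the 300-base promoter windows that hold them, Prss3 and Gm10334 were 86.4% identical and Prss1 and Gm5771 85.3%. Prss3 and Prss2 were 56.8% identical, and Prss3 and Prss1 61.6%. Unpaired ends of the alignment counted as differences in these values. From the RefSeq start, TATAAA stands at -28 in Prss3 and -11 in Gm10334, and at -31 in Prss1 and -11 in Gm5771. The windows of each pair are thus offset, so 86.4% and 85.3% understate their likeness where they overlap. The likeness did not follow the levels throughout, since Prss1 and Try4, with TATAAA at -31 in both, were 73.9% identical. All 6 hold TATAAA before the start. TTTCCC, on either strand, stands in the printed bases of Prss1, Gm5771 and Prss2. Among the RefSeq promoter windows of 28 members, 12 windows held TATAAA on either strand and 11 held TTTCCC. Of all 32851 promoters 13.6% and 25.3% did. CANNTG, the E-box bound by basic helix-loop-helix factors such as Ptf1a and Bhlha15, stood in 23 of the members' windows and in 72.3% of all promoters. Windows of the same member were not merged, so these counts are not shares of the 28 members. Each motif was counted without regard to the others, so matches may overlap, and a match describes these letters only.

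Marker sums of other cell types are given beside the Prss3 values. No duct, stellate or beta-cell marker passed between genotypes in edgeR, but neither did any other of the 16072 tested genes. The 12 duct markers, of cells that border the acini, summed to 0.148%, 0.118% and 0.120% of counts in WT 1 to WT 3 and to 0.290%, 0.194% and 0.247% in TG. Every TG library was above every WT library, with TG 2 the lowest of the 3. All 11 tested duct markers were fitted higher in TG, 5 of them at an unadjusted p under 0.05, against 9.32% of all tested genes. The defining Cftr was at most 0.249 CPM. The 9 stellate-cell markers summed to 0.00226%, 0.00585% and 0.00826% in WT and to 0.0189%, 0.00302% and 0.0151% in TG, above WT in TG 1 and TG 3 and within the WT range in TG 2. The 7 beta-cell markers summed to 0.342%, 0.306% and 0.336% in WT and 0.0865%, 0.263% and 0.162% in TG, where TG 2 was nearest to WT. The part of these cells in the Prss3, Prss1, Gm5771, Gm10334 and 1810009J06Rik values was not tested.

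Of the other marker lists, 2 had a gene called between the tables: the sex-linked genes, with 4 lower and 1 higher, and the Schwann-cell markers, with 1 higher. Duct, endothelial, stellate and hormone genes had 0 called in either direction between the tables, of 11, 10, 9 and 7 tested. Over all 16072 tested genes 619 were called lower and 913 higher. With lists this short, 0 called does not show that these genes were level. Their median log2 ratios were -0.15, 0.14, 1.36 and -0.30. The summed hormone genes were 23.9%, 24.2% and 15.8% of counts in WT and 13.4%, 24.0% and 12.3% in TG. Mitochondrial transcripts were 3.04%, 4.12% and 2.05% in WT and 2.78%, 3.11% and 2.33% in TG, lower in both second-table libraries than in the other 4. The part of these in the enzyme values was not tested.

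A further list of 37 genes of acinar identity, receptors, secretory pathway and injury response was set beside the members. Several may also be read from other islet cells, and the part of those cells in their values was not tested. Of its 32 tested genes, 9 were called lower in the second table and 1 higher, against 619 and 913 of all 16072 tested genes. The median log2 ratio of the 32 was -0.72. The called ones are secreted or granule proteins and a few others: Klk1, a tissue kallikrein, had a ratio of -5.75. Spink1, a trypsin inhibitor, had a ratio of -4.52 (SE 0.94, edgeR adjusted p = 0.0369), and RefSeq gives Spink3 as its synonym, so the listed gene without a row is measured under this name. The injury-induced lectins Reg2 and Reg3b had ratios of -7.35 and -7.60, with Reg2 at 69.4, 216.9 and 0.306 CPM in WT and 15.3, 85.4 and 0.705 CPM in TG. Reg3a, Reg3d, Aqp12, Erp27 and Try10 were the other called genes, among them Erp27, a protein of the endoplasmic reticulum, at -3.36 (SE 0.56, edgeR adjusted p = 0.0263). The genes not called ran from -5.52 for Reg3g to 0.32 for Gm10334, with Xbp1, a regulator of secretory capacity, at -0.37. Tcf3, which encodes E-proteins that pair with Ptf1a, was the gene called higher (ratio 1.17, SE 0.13, edgeR adjusted p = 0.0179). It was at 35.2, 38.5 and 75.02 CPM in WT and 39.0, 37.7 and 95.3 CPM in TG.

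Between genotypes, none of the 32 passed in edgeR, as no gene of all 16072 did. At an unadjusted p under 0.05 there were 6 higher and 1 lower. By that rule 9.32% of all tested genes were higher and 4.81% lower. The 6 were Gm5771, Gm10334 and 1810009J06Rik, related genes of 1 locus, with Tmed6, Fkbp11 and Gatm, and the lower one was Reg3g. Fkbp11, a chaperone-like protein of secretory cells, was at 18.5, 13.7 and 14.6 CPM in WT and 41.1, 26.5 and 39.6 CPM in TG (log2 ratio 1.20, SE 0.22, edgeR adjusted p = 0.199). Its genotypes did not overlap, and its tables did.

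**Figure D5:**
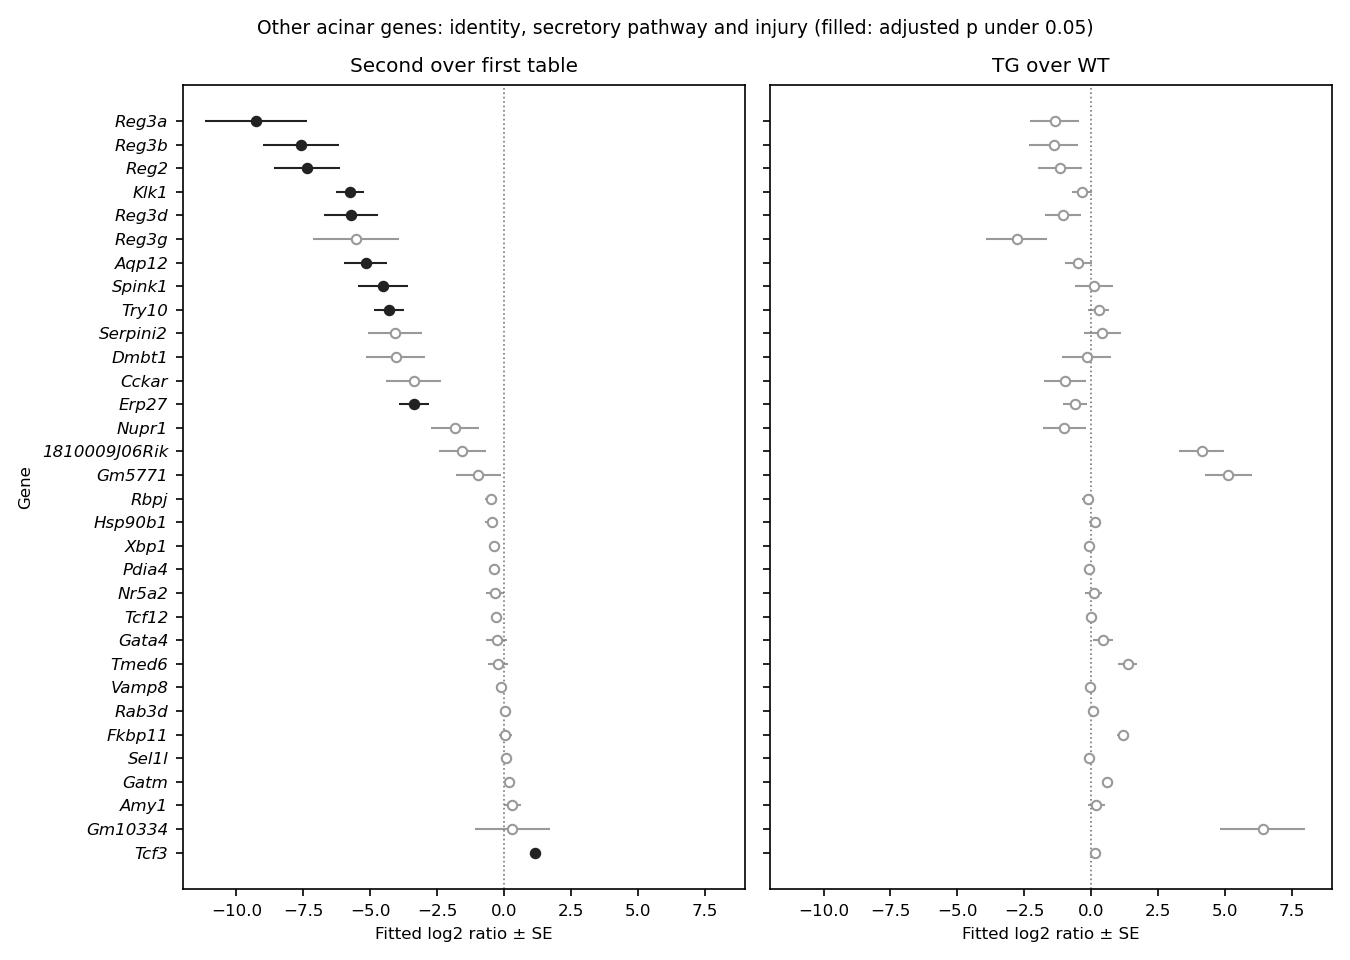
Fitted log2 ratio ± SE of the 32 tested genes of the further acinar list between the tables (left) and between the genotypes (right), with filled points at an adjusted p under 0.05. On the left Reg3a, at -9.26, lies lowest and Tcf3, at 1.17, highest, and on the right Gm10334, Gm5771 and 1810009J06Rik stand apart at the top end without passing.

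By the rule for naming other genes, the 10 called non-members with the lowest table ratios at a mean of at least 5 CPM were the Y-linked Kdm5d, Eif2s3y, Uty and Ddx3y, then Reg3b, Reg2, Klk1, Spink1, Lcn2 and Hamp. Lcn2, an iron-scavenging protein of inflamed epithelia, was at 164.5, 101.8 and 19.6 CPM in WT and 90.1, 184.2 and 4.77 CPM in TG. Hamp, which encodes the iron hormone hepcidin, had a ratio of -3.38. So 4 of the 10 were Y-linked and 4 stood in the further acinar list.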

How the data were processed

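Messenger RNA of 6 islet libraries was measured by sequencing, from TRIZOL RNA and a NEBNext Ultra kit per the labels' protocols. Per the submitters' processing notes, CASAVA 1.8, HISAT2 and the build GRCm38 (mm10) were used. The read counter, annotation and strand handling were not given in the sources used here, which leaves overlapping or near-identical genes uncertain. The authors deposited raw counts, whole numbers per gene in 2 tables. They also deposited a normalized signal and FPKM values, which were made separately per table and were used only for what the files hold and for gene names, positions and lengths.

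Counts of both tables were joined on gene ID. The fit used edgeR 4.0.16 under R 4.3.3 (genes filtered by filterByExpr within genotype, TMM, quasi-likelihood F-test, table and genotype as terms, Benjamini-Hochberg over all tested genes, threshold 0.05). The standard error is the absolute log2 ratio over the square root of F. Summed shares were compared with exact permutation tests. A count of 0 was taken to allow 3 counts. Alternatives used DESeq2 1.42.0, limma 3.58.1, other scalings, no filter and left-out libraries. The fit was tested on simulated counts. Sequences came from GENCODE M21 transcripts, matched by ID, and from RefSeq promoter windows, matched by symbol for 28 members.

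Named are all members, the 10 called non-members of at least 5 CPM with the lowest table ratio, and some genes of the fixed lists. One gene of those lists was left out of every list count and is not reported here. The members and lists were chosen with earlier results of these data known.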

Additional observations from a re-analysis of the deposited data

How the results depend on the processing

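Of the members called lower in the second table, 24 in the main fit, the count was 10 to 25 with single first-table libraries left out. It was 10 without WT 1, where 17 of all 16906 tested genes were called lower. The other tests and scalings called 23 to 26 members. Without WT 3 or TG 3, and within WT or TG alone, the second table has 1 library, so no count is given. The members' median log2 ratio was -4.41 without WT 3, -5.20 without TG 3, -5.18 within WT and -4.40 within TG. The Bhlha15 ratio between the tables was 0.056 with total counts only and ranged from -0.64 without WT 3 to 0.28 without TG 3. Members called between genotypes, 0 in the main fit, were 3 without the low-count filter, 1 within the acinar reads and 0 to 2 with single libraries left out. Over all genes, 1300 of 29725 were called higher and 372 lower without the filter. Within the acinar reads it was 51 and 7 of 16072, and without TG 2 1461 and 728 of 16560. The median member ratio of TG to WT ranged from -0.21 to 0.55 and the summed share from -1.27 to 1.51 with single libraries left out, so their direction is not settled. Called interactions, 0 in the main fit, were 1 with DESeq2 and 4 without the filter (Prss3, Try4, Reg1 and Try5). With total counts only, the median of all genes between the tables moved from -0.03 to 0.17, and the split over all genes from 913 higher and 619 lower to 1549 and 271, while the members stayed at 0 higher and 24 lower. DESeq2 gave 1788 higher and 1641 lower between the tables. Between genotypes it gave 616 higher and 136 lower, where edgeR gave 0 of each in the main fit. The cause of these changes was not tested, beyond the fewer libraries of some fits. The scaling to the acinar reads, the sum without Prss1, Prss3 and Bhlha15, and the interaction with single first-table libraries left out were chosen after seeing the data. No paired analysis was possible because the replicate numbers were given in accession order. Second-table counts limit the precision there: Prss3 and Gm5771 rest on 1 count each in WT 3.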
